A study of Mus musculus with 18 samples.

Results

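The oxidative phosphorylation genes described here are the nuclear-encoded subunits of respiratory complexes I to V in mouse striatum. They were taken from the deposited expression table by name (Nduf followed by a, b, c, s or v and a digit; Sdha to Sdhd; names starting with Uqcr; Cyc1; Cox4 to Cox8; names starting with Atp5), with a mean of at least 1 FPKM over 18 libraries. FPKM divides the fragments sequenced from a gene by its transcript length and by the mapped fragments of the library, so levels can be compared between genes of different length. Of 29942 gene names in the table, 87 matched and 85 passed this level, 37 of complex I, 4 of complex II, 10 of complex III, 17 of complex IV and 17 of complex V. Cox7b2 and Cox7a1 lay just inside the limit at mean levels of 1.00 and 1.17 FPKM. Cox8b, at a mean of 0.42 FPKM and listed at 0 in 9 libraries, and Cox8c, listed at 0 in 18, lay outside it. The name pattern also took in 3 genes whose products are not subunits: Cox4nb, an older name of a subunit of the endoplasmic reticulum membrane complex, and Atp5s and Atp5sl, older names of Dmac2l and Dmac2. Uqcr is an older name of Uqcr11, and both stood in the table as separate rows. Medians without these 4 names are in the closing section.

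The respiratory chain sits in the inner mitochondrial membrane. Complex I (NADH dehydrogenase) and complex II (succinate dehydrogenase, also an enzyme of the tricarboxylic acid cycle) pass electrons to ubiquinone, complex III passes them on to cytochrome c, and complex IV (cytochrome c oxidase) hands them to oxygen. Complexes I, III and IV pump protons, and complex V, the ATP synthase, uses the returning protons to make ATP. Complex II is wholly nuclear-encoded, while the other complexes also hold subunits that the mitochondrial genome encodes, and in the brain this chain supplies most of the ATP that neurons spend on ion gradients and synaptic transmission.

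PolyA RNA was sequenced from the striatum of both hemispheres, cut out dorsal to the anterior commissure, of sibling 129Sv/Jae S4 mice that were housed in groups and matched for age and sex. There were 6 groups of 3 mice. On days 1, 7 and 21, one group had received 0.9% saline intraperitoneally and the other D-amphetamine, a stimulant known to release dopamine from nerve terminals. The drug dose summed to 7 mg/kg each day, injected at 10 ml/kg. Values given below for a group are always those of its replicates 1, 2 and 3, and the spread is between animals. The striatal label was checked with Ppp1r1b, which encodes the projection neuron phosphoprotein DARPP-32 and which stood between 877 and 1333 FPKM in the 18 libraries. Absolute depth was unknown. Depth relative to the deepest library, estimated from the smallest steps between low FPKM values, averaged 0.878 (day 1), 0.892 (day 7) and 0.869 (day 21) in saline groups. In amphetamine groups the averages were 0.807, 0.817 and 0.762.

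The promoters of these genes are known for binding sites of NRF1 and of the ETS factor GABP (NRF2), regulators named for nuclear control of respiratory genes, and of YY1. One window is shown for each complex, chosen because it holds the letters of at least 1 of these sites close to the transcription start of a subunit whose values are given below. The sequences are RefSeq's (GRCm38.p6, matched by symbol, given in the direction of transcription and ending 5 bases into the transcript). Capitals mark CCGGAAG (ETS core), GCATGCGC (NRF1 core) or AAGATGGC (YY1 core) on either strand.
Ndufb7, chr8:83566678-83566762, plus strand: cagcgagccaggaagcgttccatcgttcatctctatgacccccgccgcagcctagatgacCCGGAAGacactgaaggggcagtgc
Sdhb, chr4:140961191-140961275, plus strand: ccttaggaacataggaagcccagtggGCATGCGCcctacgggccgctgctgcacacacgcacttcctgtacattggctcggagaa
Uqcr11, chr10:80406817-80406901, minus strand: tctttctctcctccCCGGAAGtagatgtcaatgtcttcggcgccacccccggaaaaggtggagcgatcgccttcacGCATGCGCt
Cox6a1, chr5:115348954-115349128, minus strand: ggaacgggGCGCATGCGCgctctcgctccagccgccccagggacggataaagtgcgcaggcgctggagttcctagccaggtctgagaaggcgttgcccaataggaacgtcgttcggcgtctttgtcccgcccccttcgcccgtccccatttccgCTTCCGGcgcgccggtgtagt
Atp5j, chr16:84834972-84835076, minus strand: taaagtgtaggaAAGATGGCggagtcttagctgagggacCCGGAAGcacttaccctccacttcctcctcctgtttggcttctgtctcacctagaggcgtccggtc
In Ndufb7 the ETS core starts at position -20 from the transcription start, and in Sdhb the NRF1 core starts at -54. Uqcr11 holds both, the ETS core at -66 and the NRF1 core at -4, across the start. In Cox6a1 the first block in capitals is a pair of overlapping NRF1 cores, one on each strand, at -162 and -160, and the last block is the ETS core on the opposite strand at -16. Atp5j has 2 promoter sequences. The one printed holds the YY1 core at -88 and the ETS core at -61, and the other holds none of these sites.

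In windows from 250 bases before to 50 bases after the start, the NRF1 core stood in the promoters of 10 of 66 matched subunit genes (15.2%; Atp5s and Atp5sl were left out, and Uqcr and Uqcr11 counted once), against 6.01% of 9770 matched genes that passed the expression limit and 3.05% of all 27025 genes with a promoter sequence. The YY1 core also stood in 10 of 66 (15.2%), against 5.37% and 3.19%. For the ETS core the shares were 24.2% of these subunit genes, 19.6% of expressed genes and 9.93% of all genes. Shares in the same order were 9.09%, 12% and 8.09% for the E-box CACGTG and 6.06%, 3.66% and 2.03% for the cyclic AMP response element TGACGTCA. For the TATA box TATAAA they were 9.09%, 8.63% and 15.7%. The median GC content of the windows was 57.3% in these subunit genes, 61% in expressed genes and 52.7% overall. A match describes letters in the window and is not evidence of binding.

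The members were abundant transcripts. Their median level was 69.3 FPKM, against 9.08 FPKM for the 13975 genes with a mean of at least 1 FPKM. By complex the median was 59.7 FPKM for complex I, 63.1 for complex II, 72.9 for complex III, 100.8 for complex IV and 123.5 for complex V. Summed over members, complex I held 30.1% of the members' FPKM, complex II 3.23%, complex III 10.7%, complex IV 25.3% and complex V 30.8%. These shares moved little between libraries: the lowest and highest were 29.4% and 30.6% for complex I, 3.05% and 3.57% for complex II, 10.4% and 11% for complex III, 24.6% and 26.4% for complex IV, and 29.5% and 31.5% for complex V.

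**Figure D1:**
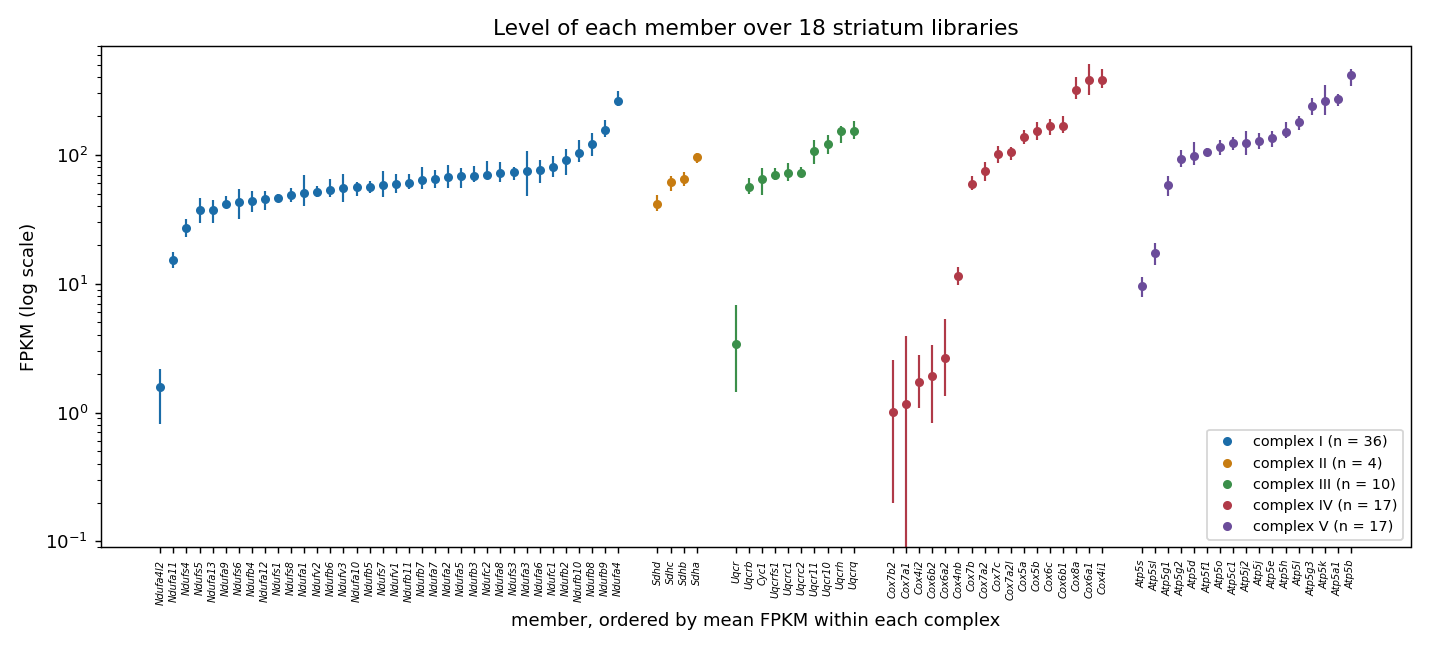
Mean FPKM (points, log axis) and the lowest and highest of 18 libraries (lines) for 84 of the 85 members, ordered within complexes I to V. Most subunits lie between 40 and 400 FPKM, and the low points are the alternative isoforms, the names that are not subunits, Uqcr and Ndufa11; the line of Cox7a1, which is listed at 0 in 1 library, runs to the axis.

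Within complex I, 34 of 37 members lay between Ndufs4 at 27.2 FPKM and Ndufb9 at 155 FPKM. Members are assigned to complexes by name, so Ndufa4 stays with complex I in all counts and medians here. Ndufs4 and Ndufb9 are accessory subunits. Above this range stood Ndufa4 at 260 FPKM, now assigned to complex IV, and below it Ndufa11, a membrane-arm accessory subunit, at 15.2 FPKM and Ndufa4l2, a paralogue of Ndufa4 known as a hypoxia-induced gene, at 1.57 FPKM. The core subunits described here, from the arm that takes electrons from NADH, lay close together: Ndufs1 at 45.9 FPKM, Ndufs8 at 48.3, Ndufv2 at 51.6, Ndufs7 at 58.0, Ndufv1 at 59.7 and Ndufs3 at 73.8.

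In complex II, Sdha (the flavoprotein that oxidises succinate) stood at 95.9 FPKM and Sdhb (the iron-sulphur subunit) at 64.7 FPKM. The membrane anchors Sdhc and Sdhd stood at 61.4 and 41.7 FPKM. In complex III the catalytic subunits Cyc1 (cytochrome c1) and Uqcrfs1 (the Rieske protein) stood at 64.8 and 69.3 FPKM, and the core proteins Uqcrc1 and Uqcrc2 at 72.9 FPKM each. Higher levels belonged to the small subunits Uqcrh at 152 and Uqcrq at 154 FPKM, while the small subunit Uqcrb was at 56.6 FPKM.

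Complex IV divided into ubiquitous and alternative isoforms. Cox4i1, the subunit that binds ATP as a regulator, averaged 381 FPKM and Cox4i2, its form known from lung, 1.74 FPKM, a ratio of 219. Cox6a1 exceeded the heart and muscle form Cox6a2 by 145 times (381 and 2.63 FPKM), and Cox6b1 exceeded the testis form Cox6b2 by 88.4 times (169 and 1.91 FPKM). Cox7a2 exceeded the heart and muscle form Cox7a1 by 63.6 times, and Cox7b exceeded Cox7b2 by 59.1 times. In all 18 libraries the first-named form of each of these 5 pairs was the higher. Cox8a, the ubiquitous form, stood at 320 FPKM, and its heart and muscle form Cox8b was below the limit. Cox7a2l, a factor of supercomplex assembly, was 1.42 times Cox7a2.

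In complex V the catalytic beta subunit Atp5b averaged 413 FPKM and the alpha subunit Atp5a1 271 FPKM, the 2 highest levels of the complex, with the gamma subunit Atp5c1 at 122.8 FPKM. Subunit c, which forms the rotating ring, is encoded by 3 genes whose mature proteins are alike. Atp5g3 gave 61.2% of their summed FPKM, Atp5g2 23.8% and Atp5g1 15%, with ranges over the 18 libraries of 59.0% to 62.9%, 22.2% to 25.4% and 14% to 16.5%. The ranges did not overlap.

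The median coefficient of variation within groups was 8.92% for members, against 10.8% over all tested genes, whose median level was lower. In log2(FPKM + 1) the median standard deviation within groups was 0.126 for members and 0.134 for all tested genes. For complex IV it was 0.142. By coefficient of variation the tightest members were Atp5f1 (3.68%), a stalk subunit, Sdha (3.77%) and Ndufs1 (4.12%), the largest core subunit of complex I. What variation there was ran through all complexes at once. Each member's deviation from its own mean over the 18 libraries was taken on the log2(FPKM + 1) scale. The medians of the 5 complexes all lay above 0 in 6 libraries, all below 0 in 8, and on both sides in 4. The lowest library was day 1 saline replicate 1, with a median over all members of -0.16, and the highest was day 1 amphetamine replicate 3, at 0.17. In the first, 6 of 85 members lay above their own mean, and in the second 77 did. Counts of members in one direction are therefore not counts of independent observations. The same 2 libraries also held the lowest and the highest Ppp1r1b level, 877 and 1333 FPKM, and their medians over all tested genes were -0.05 and 0.06.

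**Figure D2:**
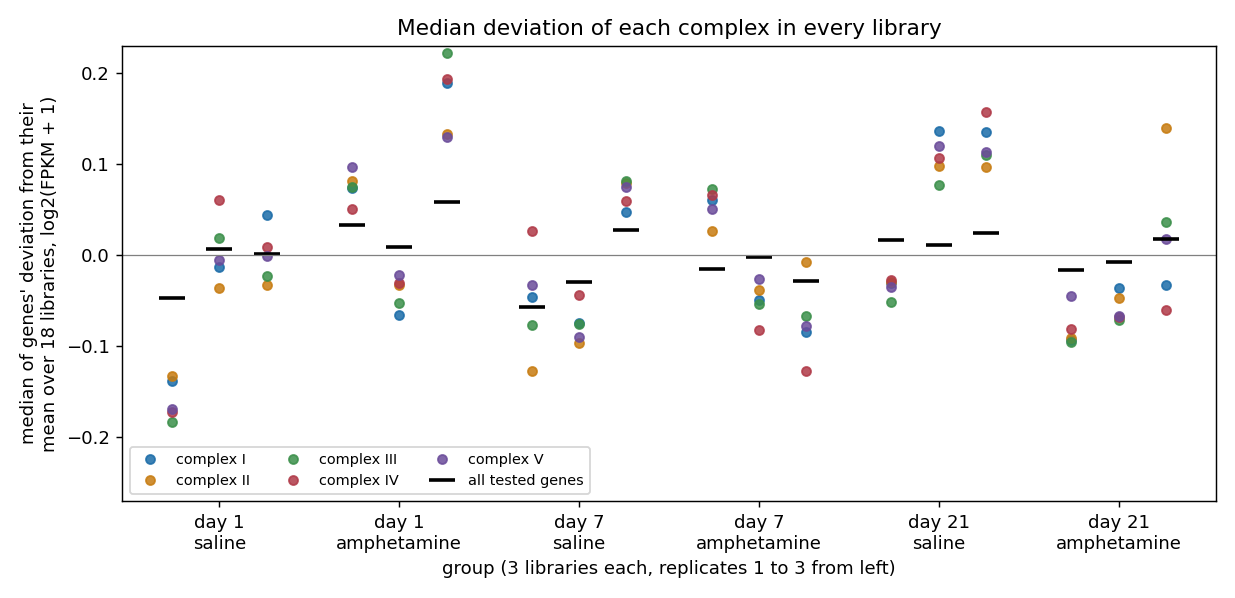
Median deviation of the members of each complex from their means over 18 libraries, in log2(FPKM + 1), for the 3 libraries of each of the 6 groups; black bars are the median of all 13975 tested genes. The coloured points of a library lie close together, lowest in day 1 saline replicate 1 and highest in day 1 amphetamine replicate 3.

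Amphetamine and saline were compared on each day with limma, fitted to all 13975 genes with Benjamini-Hochberg adjusted p values, and a gene passed at 0.05. No member passed on any day. Over all genes, 0.00716% passed on day 1, 0.0215% on day 7 and 0% on day 21. The smallest adjusted p of a member (limma) was 0.666 for day 1, 1 for day 7 and 0.869 for day 21. At an unadjusted p under 0.05, limma gave 6 members on day 1, all higher with amphetamine (5.32% of all tested genes met this), 0 on day 7 (4.92%) and 10 on day 21, all lower (3.17%).

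The members leaned in opposite directions on the first and last days, by amounts near the spread between animals. On day 1 the median log2 difference (amphetamine minus saline) over the 85 members was 0.11, beside 0.05 over all tested genes, and 75 members were higher, beside 64% of all tested genes. On day 7 the median was -0.01, beside 0.00, and 46 members were lower, beside 47.9%. On day 21 it was -0.12, beside -0.02, and 78 members were lower, beside 56.6%. The pooled standard deviation of a library's median over all members within groups was 0.09 on the same scale. The day 1 median depended on single animals and on scaling. It was 0.05 without day 1 saline replicate 1 and 0.05 without day 1 amphetamine replicate 3, with 65 of 85 members higher in each case. With median-of-ratios scaling it was also 0.05, with 65 members higher and 20 lower and 49.9% of all genes higher. By its label number, day 1 saline replicate 1 stood apart from the other day 1 libraries, and the meaning of these numbers is not given. The day 1 median kept its sign with the range of label numbers as a covariate. On day 21 the median stayed between -0.17 and -0.09 when each library was left out in turn, and 73 members were lower with median-of-ratios scaling.

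By complex, the day 1 medians were 0.09 for complex I (33 of 37 higher), 0.13 for complex II (4 of 4), 0.13 for complex III (9 of 10), 0.08 for complex IV (13 of 17) and 0.10 for complex V (16 of 17). On day 7 they were 0.01, 0.00, 0.01, -0.04 and 0.00 in the same order, with 20, 2, 5, 3 and 9 members higher. On day 21 they were -0.13 for complex I (35 of 37 lower), -0.07 for complex II (4 of 4), -0.08 for complex III (8 of 10), -0.15 for complex IV (15 of 17) and -0.08 for complex V (16 of 17). The pooled standard deviation of a library's median was 0.09, 0.09, 0.10, 0.09 and 0.08 for complexes I to V. On day 1 the medians of complexes II, III and V, and by little that of complex I, exceeded that spread and that of complex IV did not. This order depended on the processing. Among alternatives that kept all libraries, the lowest day 1 medians were 0.04, 0.08, 0.08, 0.03 and 0.05 for complexes I to V, each below its spread. The highest for complex IV was 0.13, above its spread. In size, the day 21 medians of complexes I, IV and V exceeded that spread, complex V by little, and those of complexes II and III did not. Among the same alternatives the day 21 median of complex V came as near 0 as -0.06, below its spread in size.

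**Figure D3:**
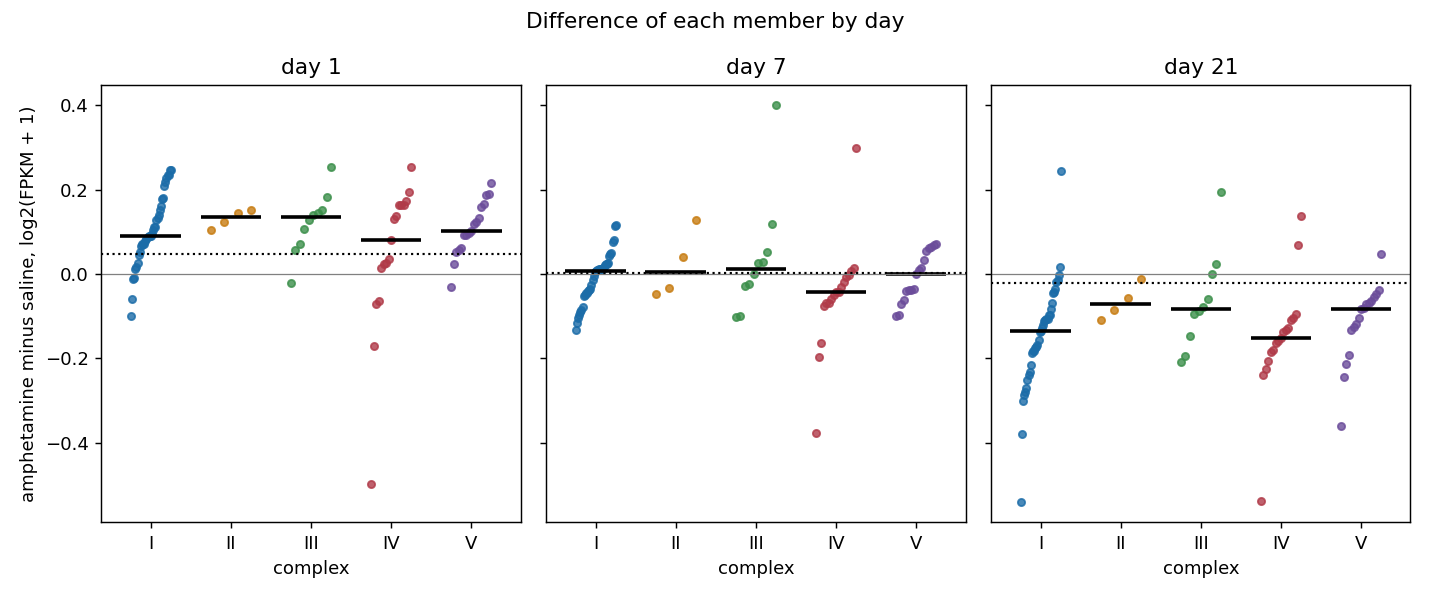
Amphetamine minus saline difference of each member in log2(FPKM + 1) on days 1, 7 and 21 (points), by complex; black bars are the medians of the complexes and the dotted line is the median of all 13975 tested genes. Points lie mostly above 0 on day 1 and mostly below 0 on day 21, and no point passed the adjusted threshold.

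Summed FPKM was also compared by group. For complex I the sum was 2392 ± 174 with saline and 2591 ± 263 with amphetamine on day 1 (SD, n = 3 each). The day 7 sums were 2420 ± 116 and 2410 ± 151, and those of day 21 were 2628 ± 181 and 2342 ± 55. For complex IV on day 21 the sum was 2223 ± 180 with saline and 1946 ± 22 with amphetamine. For complex V on day 21 it was 2652 ± 215 and 2421 ± 35. In complex II on day 21 the amphetamine libraries were the more spread, at 262 ± 20 beside 274 ± 13 with saline. Among the day 21 saline libraries the medians of replicates 2 and 3 were high in every complex and that of replicate 1 was not: those of complex I were -0.03, 0.14 and 0.14. The amphetamine medians of complex I were -0.09, -0.04 and -0.03, while those of complex II were -0.09, -0.05 and 0.14 and those of complex III -0.10, -0.07 and 0.04.

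Among complex I members, the smallest day 21 p belonged to Ndufc1, an accessory subunit of the membrane arm. On day 21 it stood at 92.7, 97.6 and 83.2 FPKM with saline and at 78.2, 76.1 and 67.2 FPKM with amphetamine, so the groups did not overlap. The log2 difference was -0.30 ± 0.099 (SE, n = 3 each; limma unadjusted p = 0.00845, adjusted p = 0.869). On day 1 Ndufc1 stood at 75, 80.6 and 91.2 FPKM with saline and at 84.0, 72.0 and 89.2 FPKM with amphetamine, which overlap. Ndufa1, a small membrane-arm accessory subunit, stood on day 21 at 45.0, 57.7 and 69.6 FPKM with saline and at 42.6, 47.2 and 40.2 FPKM with amphetamine. Its groups overlapped through saline replicate 1, and the difference was -0.38 ± 0.14 (limma adjusted p = 0.869).

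Ndufa2, a peripheral-arm accessory subunit with a thioredoxin-like fold, was highest in saline on day 21. It stood there at 77.1, 73.2 and 78.4 FPKM with saline and at 60.5, 57.4 and 72.0 FPKM with amphetamine, without overlap (difference -0.27 ± 0.109, limma adjusted p = 0.869). On day 1 it stood at 56.5, 63.3 and 69.9 FPKM with saline and at 78.4, 62.4 and 82.8 FPKM with amphetamine, where replicate 2 of the amphetamine group fell within the saline range. Ndufb7, an intermembrane-space accessory subunit whose promoter is printed above and which was chosen after its values were seen, did not overlap on day 21 (difference -0.29 ± 0.115, limma adjusted p = 0.869).

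On day 1 the complex I members with the smallest p were Ndufc2 and Ndufb6, both accessory subunits of the membrane arm. Ndufc2 stood at 67.7, 66.0 and 72.4 FPKM with saline and at 73.7, 75.9 and 89.9 FPKM with amphetamine. Ndufb6 stood at 50.2, 47.2 and 50.6 FPKM with saline and at 56.6, 54.0 and 64.7 FPKM with amphetamine. In both genes every amphetamine library lay above every saline library, with the highest value in replicate 3. The differences were 0.21 ± 0.075 and 0.24 ± 0.086 (limma adjusted p = 0.666 for both). On day 21 these 2 genes differed by -0.04 and -0.00.

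On day 21 these core subunits of complex I had a smaller median difference than the other members. The median difference of the 6 core subunits named above was -0.11 (6 of 6 lower) and that of the 30 other members -0.16 (28 of 30 lower), and all 8 complex I members with an unadjusted p under 0.05 were among the latter. The other members include Ndufa4, kept here by its name. Median transcript length was 924 bases for the core subunits and 627 bases for the other members. The difference between these subgroups was not tested, and neither was the part of transcript length in it. Ndufs1 stood at 44.2, 45.5 and 48 FPKM with saline and at 44.1, 44.7 and 47.6 FPKM with amphetamine on day 21, which are nearly the same values. Its difference was -0.01 ± 0.054 on day 21 and 0.05 ± 0.054 on day 1. Ndufs3, which had one of the smallest p on day 7, differed by -0.10 ± 0.072 on that day (limma adjusted p = 1), and Ndufs5 by -0.28 ± 0.131 on day 21 (limma adjusted p = 0.869). Ndufa4l2 was the member whose amphetamine values all exceeded the saline values on day 21, at 2.14, 1.91 and 1.90 FPKM against 1.68, 1.28 and 1.61 FPKM.

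In complex II, Sdha stood on day 1 at 86.2, 94.3 and 93.4 FPKM with saline and at 104, 95.6 and 99.0 FPKM with amphetamine. The groups did not overlap, and the difference was 0.12 ± 0.052 (limma adjusted p = 0.674). On day 21 it stood at 96.5, 101 and 101 FPKM with saline and at 91.0, 89.3 and 96.5 FPKM with amphetamine, and the difference was -0.11 ± 0.052 (limma adjusted p = 0.869). The day 21 groups met at the lowest saline and highest amphetamine animal. Sdhb, at 60.9, 61.8 and 60.2 FPKM with saline on day 1 and 66.3, 66.4 and 69.7 FPKM with amphetamine, also did not overlap (0.14 ± 0.082, limma adjusted p = 0.680). On day 21 it differed by -0.01. Sdhc had the smallest p of any member on day 7, with a difference of 0.13 ± 0.092 (limma adjusted p = 1), and Sdhd differed by 0.11, 0.04 and -0.08 on days 1, 7 and 21.

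In complex III no member was separated between groups on day 1. Uqcrfs1 stood there at 63.8, 69.8 and 66.0 FPKM with saline and at 78.5, 69.7 and 78.9 FPKM with amphetamine, a difference of 0.18 ± 0.080 (limma adjusted p = 0.674). Cyc1 stood at 48.8, 67.7 and 59.6 FPKM and at 67.9, 63.3 and 78.4 FPKM, a difference of 0.25 ± 0.124 (limma adjusted p = 0.674). Its lowest value was that of saline replicate 1, the library that was low for nearly all members. On day 21 Cyc1 differed by -0.10 and Uqcrfs1 by -0.06. The core protein Uqcrc2 held nearly constant, with differences of 0.06, -0.00 and -0.00 on the 3 days, and Uqcrc1 differed by 0.15, 0.12 and -0.09. Uqcrb did not share the lean of the complex, at -0.02, -0.03 and 0.03. Uqcr11, a small subunit whose promoter is printed above and which was chosen after its values were seen, stood on day 21 at 96.4, 131 and 124 FPKM with saline and at 107, 99.8 and 96.9 FPKM with amphetamine. These groups overlapped through saline replicate 1, and the difference was -0.19 ± 0.142 (limma adjusted p = 0.878), beside 0.15 ± 0.142 on day 1. The Uqcr row had a within-group coefficient of variation of 44.7% and carried little information.

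In complex IV the most abundant subunits followed the libraries closely. Cox6a1 stood on day 21 at 387, 446 and 406 FPKM with saline and at 333, 349 and 377 FPKM with amphetamine, which did not overlap. The difference was -0.22 ± 0.142 (limma adjusted p = 0.877). On day 1 it ranged from 293 to 398 FPKM with saline and from 324 to 504 FPKM with amphetamine, and the groups overlapped. Cox4i1 differed by 0.14 ± 0.103 on day 1 and -0.18 ± 0.103 on day 21, and Cox8a by 0.16 ± 0.121 and -0.24 ± 0.121. Cox5a and Cox5b, the subunits that face the matrix, differed by -0.16 ± 0.076 and -0.21 ± 0.097 on day 21 (limma adjusted p = 0.869 for both), and Cox5a did not overlap there. Cox7b was the complex IV member whose groups were separated on day 1, at 55.4, 56.7 and 58.0 FPKM with saline and at 61.6, 61.8 and 63.0 FPKM with amphetamine (0.13 ± 0.071, limma adjusted p = 0.676).

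The low isoforms of complex IV had larger errors and no common direction. On day 1 Cox4i2 differed by -0.17 ± 0.212, Cox6a2 by -0.07 ± 0.270, Cox7a1 by -0.50 ± 0.456, Cox7b2 by -0.06 ± 0.370 and Cox6b2 by 0.25 ± 0.223. On day 21 the differences were 0.14, -0.09, -0.54, 0.07 and -0.13 in the same order, with the same errors. None passed the test. Differences of such low values are understated on the log2(FPKM + 1) scale. With a limit of 5 FPKM, which removes these 5 isoforms, the day 1 median of complex IV was 0.13.

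In complex V, Atp5j (coupling factor 6, a subunit of the peripheral stalk) had the smallest p of all members on day 1 and in the comparison between days. On day 1 it stood at 114, 119 and 122 FPKM with saline and at 138, 133 and 142 FPKM with amphetamine, without overlap. The difference was 0.21 ± 0.075 (limma unadjusted p = 0.0127, adjusted p = 0.666). On day 7 it stood at 130, 128 and 134 FPKM with saline and at 131, 126 and 111 FPKM with amphetamine (-0.10 ± 0.075). On day 21 it stood at 120, 143 and 147 FPKM with saline and at 117, 125 and 115 FPKM with amphetamine, where saline replicate 1 fell within the amphetamine range (-0.19 ± 0.075, limma adjusted p = 0.869). The catalytic subunits had smaller differences: Atp5b differed by 0.16 ± 0.080, -0.04 and -0.12 on days 1, 7 and 21, and Atp5a1 by 0.10 ± 0.068, 0.02 and -0.07. Atp5c1 was separated on day 1, at 110, 122 and 119 FPKM with saline and at 129, 125 and 130 FPKM with amphetamine (0.13 ± 0.066, limma adjusted p = 0.674). The 5 subunits of the F1 head had a median of 0.13 on day 1 and -0.08 on day 21, and the 10 other subunits 0.10 and -0.10. The subunit c genes Atp5g1, Atp5g2 and Atp5g3 differed by 0.09, 0.12 and 0.17 on day 1 and by -0.13, -0.07 and -0.08 on day 21. Atp5s and Atp5sl, which are not subunits, differed by 0.05 and 0.19 on day 1 and 0.05 and -0.21 on day 21.

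**Figure D4:**
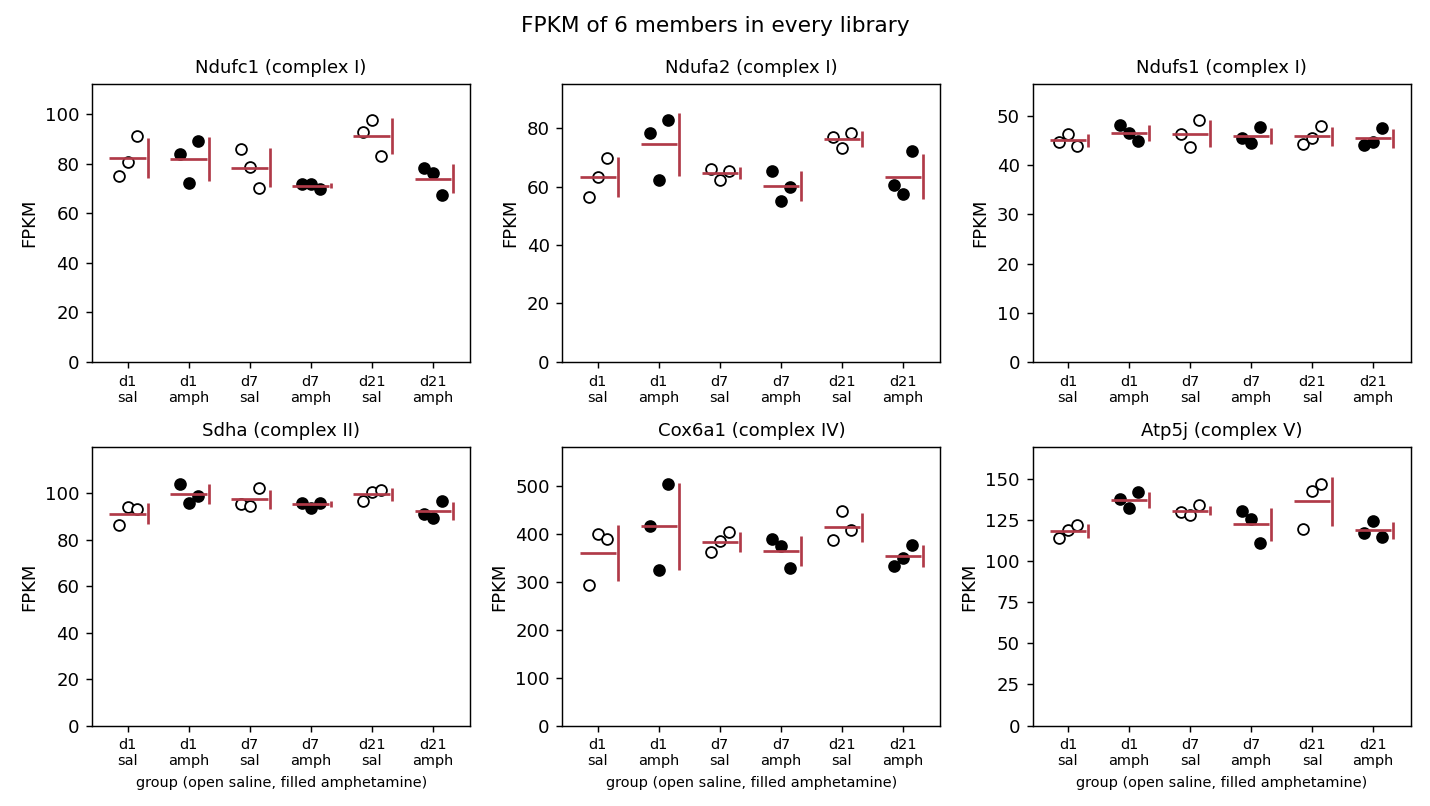
FPKM in every library of 6 members, with saline as open and amphetamine as filled points, group means as red bars and SD (n = 3) as red lines. Sdha and Atp5j are separated on day 1 and Ndufc1, Ndufa2 and Cox6a1 on day 21, while Ndufs1 stays level in all 6 groups.

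Counted over all members, 9 of 85 had every amphetamine value above every saline value on day 1, beside 7.73% of all tested genes. These were Ndufb6, Ndufc2, Sdha, Sdhb, Cox7b, Atp5c1, Atp5f1, Atp5j and Atp5sl. None was separated on day 7, when 5.45% of all tested genes were separated with amphetamine above saline and 4.86% below. On day 21, 14 of 85 had every amphetamine value below every saline value, beside 7.51%. By name 9 of these were counted with complex I: Ndufa13, Ndufa2, Ndufa4 (now assigned to complex IV), Ndufa6, Ndufb7, Ndufc1, Ndufs3, Ndufs4 and Ndufs6. The others were Uqcr10, Cox5a, Cox6a1, Cox6c and Atp5h. No member was in both sets, beside 0.73% of all tested genes. The names not described above were listed to complete these counts after their values were seen.

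The treatment difference was then compared between days. Day 21 was set against day 1 because earlier results had shown opposite signs on these days. The values of that contrast therefore restate the leans given above and are not further support for them. The day 21 difference minus the day 1 difference was below 0 for 80 of 85 members, beside 62.6% of all tested genes, with a median of -0.23 beside -0.07. Tested gene by gene, no member passed (smallest limma adjusted p = 0.456), as was so for all genes (0% passed). At an unadjusted p under 0.05 there were 23 members, all below 0, beside 7.01% of all tested genes: 11 of complex I, 1 of complex II, 1 of complex III, 7 of complex IV and 3 of complex V. The smallest p belonged to Atp5j (-0.41 ± 0.107, unadjusted p = 0.00182), Ndufa2 (-0.50 ± 0.155, unadjusted p = 0.00601) and Sdha (-0.23 ± 0.073, unadjusted p = 0.00668) in limma. The test across the 3 days at once gave 0 members past the threshold (0% of all genes) and 5 at an unadjusted p under 0.05 in limma, beside 6.25%.

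Averaged over the 3 days, the opposite leans cancelled. The median of the mean difference was -0.01 over members and 0.01 over all tested genes. No member passed, beside 0.122% of all genes, and 1 had an unadjusted limma p under 0.05, beside 5.36%. That gene was Ndufc1, at -0.15 (limma unadjusted p = 0.0209, adjusted p = 0.851). Between days within one treatment, no member passed in saline animals (0.00716% of all genes passed; 1 member at an unadjusted limma p under 0.05, beside 5.95%) or in amphetamine animals (0% passed; 5 members, beside 11.2%).

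The 3 mitochondrially encoded subunits on the list used here did not share the lean of their nuclear partners. Rows for other such subunits are not described here. These transcripts were far more abundant: Cox2 (subunit 2 of complex IV) averaged 13044 FPKM, mt-Nd4 (subunit 4 of complex I) 7467 FPKM and Cytb (cytochrome b of complex III) 4170 FPKM. All 3 were lower with amphetamine on day 1 (median difference -0.04) and on day 7 (-0.11), and higher on day 21 (0.10). None passed the test. mt-Nd4 stood on day 21 at 7285, 7490 and 7149 FPKM with saline and at 7636, 8544 and 7640 FPKM with amphetamine, so that the groups were separated in the direction opposite to the nuclear subunits of complex I. On day 1 it stood at 8208, 6885 and 7505 FPKM with saline and at 7433, 7209 and 7268 FPKM with amphetamine, which overlap, and the highest value was that of saline replicate 1, the library with the lowest nuclear subunits.

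Other genes of mitochondria and of energy metabolism were read from lists. No gene of any list passed the test on any day. All 19 tricarboxylic acid cycle genes were higher with amphetamine on day 1 (median 0.11), and their median was -0.02 on day 21. Of 76 mitochondrial ribosomal proteins, 68 were higher on day 1 (0.12) and 63 lower on day 21 (-0.09). Of 25 genes of mitochondrial import and the outer membrane, 22 were higher on day 1 (0.10) and 22 lower on day 21 (-0.07). Of 13 carriers and electron shuttles beside the complexes, 12 were higher on day 1 (0.11) and 10 lower on day 21 (-0.09).

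Other lists had smaller medians on at least 1 of these days. The 28 assembly factors, which build the complexes and are not part of them, had a day 1 median of 0.07 and a day 21 median of -0.01. The 76 cytosolic ribosomal proteins, short abundant transcripts with no role in respiration, had medians of 0.03 and -0.10, with 66 lower on day 21. The 16 glycolysis genes had medians of 0.06 and -0.06. Among 19 tested regulators of mitochondrial biogenesis, the median was 0.05 on day 1 and -0.03 on day 21. One of them, Ppargc1a (the coactivator PGC-1alpha), stood on day 1 at 8.10, 5.91 and 7.91 FPKM with saline and at 2.97, 0.369 and 7.96 FPKM with amphetamine. Amphetamine replicates 1 and 2 were low and replicate 3 was not, and the difference was -1.17 ± 0.47 (limma adjusted p = 0.666). It was named after its values were seen.

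**Figure D5:**
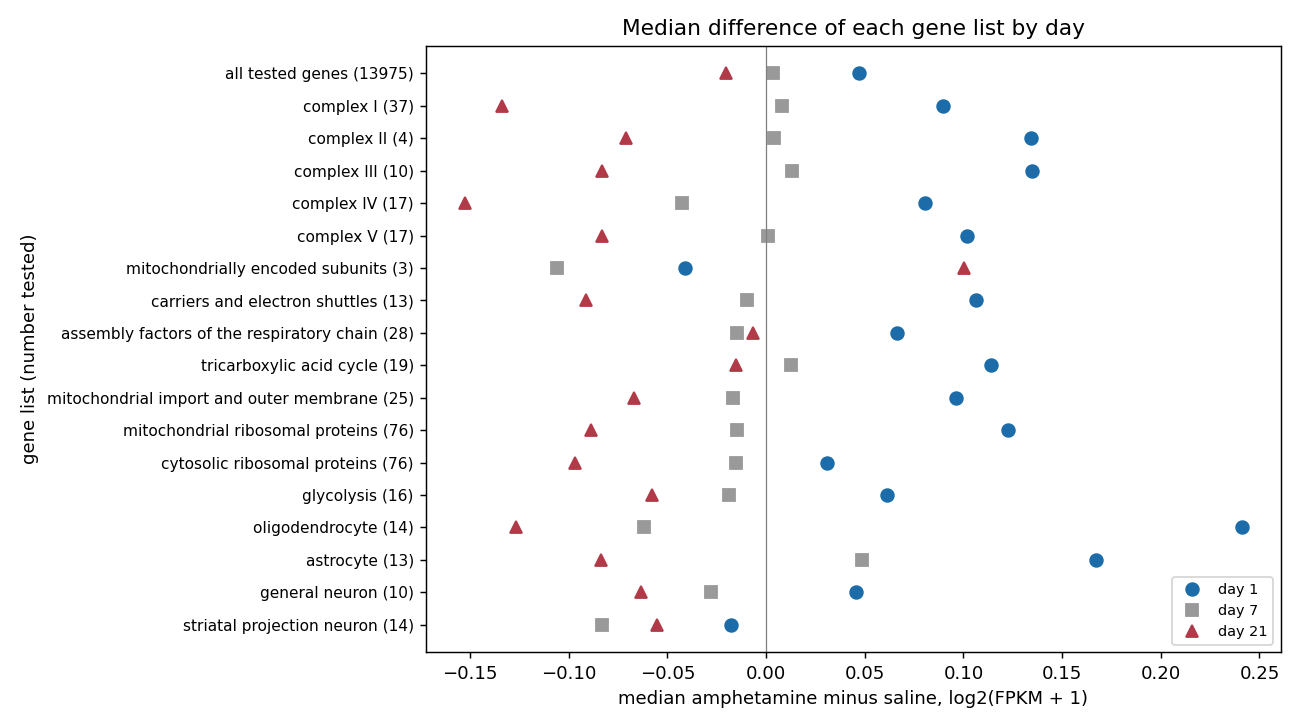
Median amphetamine minus saline difference in log2(FPKM + 1) of each gene list on days 1, 7 and 21, with the number of tested genes in brackets. The nuclear-encoded complexes and the mitochondrial ribosomal proteins lie above all tested genes on day 1 and below them on day 21. The listed mitochondrially encoded subunits lie on the opposite side, and oligodendrocyte markers have the highest day 1 median of the lists drawn.

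Other quantities were read beside these leans, and some moved with them while others did not. Oligodendrocyte markers, such as Mbp of myelin, were higher with amphetamine on day 1 in 14 of 14 genes (median 0.24) and lower on day 21 in 12 of 14 (-0.13). Their summed level ranged from 1502 to 2546 FPKM with saline and from 2049 to 3309 FPKM with amphetamine on day 1, and from 1660 to 2315 and 1696 to 2036 FPKM on day 21; none of these markers was at 0. Astrocyte markers had medians of 0.17 and -0.08 on the same days, microglial markers 0.13 and -0.07, general neuronal markers 0.05 and -0.06, and striatal projection neuron markers -0.02 and -0.06. Of 7 choroid plexus markers 3 were tested, and all 3 were higher on day 1 (median 0.52); their list summed to 10.7 to 19.9 FPKM with saline and 27.4 to 103 FPKM with amphetamine, without overlap, and their day 21 median was 0.20. Tested markers of ependymal cells (3 genes) had medians of 0.47 and 0.22, and those of cortical glutamatergic neurons (4 genes) -0.68 and -0.31. Medians were above 0 on both days for interneuron markers (0.14 and 0.07) and oligodendrocyte precursor markers (0.17 and 0.09). The same held for endothelial and mural markers (0.09 and 0.04) and blood markers (3 genes, 0.31 and 0.61). Short transcripts leaned the same way as the members. Of the 85 members, 76 were among the 3064 tested genes with transcripts of up to 1298 bases. Over those genes the median difference was 0.08 on day 1 and -0.05 on day 21, while over the 3061 genes with transcripts above 3540 bases it was 0.01 and -0.01. The median transcript length was 659 bases for members and 2254 bases for all tested genes. Among the members themselves, the 43 shorter and the 42 longer had medians of 0.11 and 0.11 on day 1 and of -0.16 and -0.10 on day 21. The mean relative depth given above was lower with amphetamine on all 3 days, and the ranges of the saline and amphetamine libraries overlapped on each day. The part of cell composition, transcript length and depth in the differences was not tested, and in bulk tissue fewer cells of a type and less RNA per cell cannot be told apart.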

How the data were processed

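PolyA RNA of striatum was measured in 18 mice, 3 in each of 6 groups taken from the labels. The authors deposited FPKM values for 29942 gene names in 1 table, with 0 columns of other samples. The submitters' processing notes name Bowtie and mm9. The program that made the FPKM, with its annotation, versions and use of strand, is not given in the sources used here, and reads of overlapping genes may be shared. Absolute depth is unknown. RefSeq names pseudogenes after 9 members (Atp5k, Uqcrh and Atp5l have 4, 2 and 2), and reads of such copies may be shared, so these levels are uncertain.

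Values were tested as log2(FPKM + 1), which understates changes of low genes, for 13975 genes with a mean of at least 1 FPKM. The model was limma's (3.58.1, under R 4.3.3) with a trend of variance on level. It took all 18 libraries and gave each group its own mean, leaving 12 residual degrees of freedom. P values are two-sided, with Benjamini-Hochberg adjustment over all tested genes. A library's spread of medians is the pooled standard deviation within groups.

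The members and lists were chosen with earlier results of these data known. The genes described are the 2 highest and 2 lowest of each complex, the 3 smallest p of each comparison, core subunits, isoform pairs and names that are not subunits. Promoters came from RefSeq (GRCm38.p6, of another build than the files, so only names were matched), and transcript lengths from GENCODE. On simulated day 21 data with 200 changed of 13975 genes, the fit recovered 1.17% of changes of 0.25 log2, 50.8% of 0.5 and 91.8% of 1, so differences of 0.25 or less were rarely called by it. Alternatives were pseudocount, filter, scaling, a replicate block over all days or within each day, the range of label numbers and leaving out each library. Figures were drawn with matplotlib (version 3.10.9). Some results are not reported here.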

Additional observations from a re-analysis of the deposited data

How the results depend on the processing

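No member passed under any alternative fit run (29 for each day, 28 for the mean of days and the interactions, 27 for the day effects within a treatment), and 466 of 468 alternative medians by complex and day stayed within 1 SD of the spread between animals. That SD was 0.08 to 0.10, near the size of the day 1 and day 21 medians and above that of the day 7 medians. The count therefore says little about how stable the medians were. The day 1 and day 21 medians kept their sign under every alternative run. Of the day 7 medians, which lie near 0, 19 of the alternative values had the other sign. Leaving out each replicate in turn gave medians over all members from 0.051 to 0.15 on day 1, -0.049 to 0.029 on day 7 and -0.17 to -0.095 on day 21. For complexes I to V the day 1 ranges were 0.044 to 0.15, 0.079 to 0.16, 0.038 to 0.23, 0.027 to 0.14 and 0.066 to 0.15. On day 21 they were -0.18 to -0.099, -0.13 to -0.022, -0.14 to -0.039, -0.18 to -0.11 and -0.17 to -0.057. A shift by over 1.5 times on day 1 came without saline replicate 1 in all 5 complexes, without amphetamine replicate 3 or 2 in complexes I, III and IV, without saline replicate 3 in complexes I and IV and without saline replicate 2 in complex IV. On day 21 it came without any of the 6 libraries in complex II, without saline replicate 1 or 2 or amphetamine replicate 1 or 3 in complex III, and without saline replicate 1 in complex V. With median-of-ratios scaling the day 1 median over all members was 0.053 and with quantile normalization 0.058, and on day 21 they were -0.097 and -0.085. Without Cox4nb, Atp5s, Atp5sl and Uqcr the medians over all members were 0.11 and -0.12 on these days, and that of complex IV on day 1 was 0.058. Some counts of members also moved: members higher on day 7 were 39, but 19 to 57 when each library was left out, members lower on day 1 were 10, but 20 with median-of-ratios scaling and 20 without day 1 saline replicate 1 or amphetamine replicate 3, and members higher on day 21 were 7, but 14 without day 21 amphetamine replicate 1. These counts and the leaving out of the 4 names were chosen after seeing the data. Whether the replicate numbers pair the animals is not known. Correlations of same-numbered deviations ran from -0.09 to 0.14, and those of different numbers from -0.14 to 0.13. On day 21 all same-numbered values lay above all others, the highest of which was 0.01. A replicate block cannot change the differences, because each group holds replicates 1, 2 and 3. The counts of 75 members higher on day 1 and 78 lower on day 21 therefore stayed by design. Only the errors could change, and 0 members passed the threshold with the block over all days or within each day. Precision is limited by 3 animals a group and by the unknown depth.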
